A study of Mus musculus with 6 samples.

Results

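ATP-dependent chromatin remodellers are motor enzymes of the SNF2 family, with their partner subunits, that slide, eject or exchange nucleosomes. A list of 42 mouse genes was taken, chosen by name from the SWI/SNF, ISWI, CHD/NuRD and INO80 families and a few stand-alone ATPases. Earlier results of these data were known when the list was chosen. Of these, 38 had at least 1 probe on the array under their current symbol or an older symbol of that gene alone, out of 16390 gene symbols in all. Smarcd2, Arid1b and Mta2 had no probe under their symbols. A probe listed under Pb1, an older symbol that Pbrm1 shares with Adgrg3, was assigned to neither gene; its log2 difference was -0.11 (limma adjusted p = 0.616). The 38 genes were Smarca2, Smarca4, Smarcb1, Smarcc1, Smarcc2, Smarcd1, Smarcd3, Smarce1, Arid1a, Arid2 and Actl6a (SWI/SNF, 11 genes), Smarca1, Smarca5, Bptf, Baz1a and Baz1b (ISWI, 5 genes), Chd1 to Chd4, Chd6 to Chd9, Mta1, Mta3, Gatad2a, Gatad2b, Mbd2 and Mbd3 (CHD/NuRD, 14 genes), Ino80, Ep400, Srcap, Ruvbl1 and Ruvbl2 (INO80, 5 genes), and Smarcad1, Smarcal1 and Hells (3 genes).

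The cells were CH12F3-2A, a mouse B lymphoma line that switches to IgA when stimulated. In the siSpt6 group (3 samples) siRNA against Spt6 was electroporated into the cells, and in the siControl group (3 samples) a control siRNA. Both groups were given CD40L, IL4 and TGFb (CIT) 24 h after transfection, and RNA was taken 24 h later, so no unstimulated cells enter the comparison. The Supt6 product, Spt6, is a chaperone for histones and accompanies elongating RNA polymerase II, and the arrays ask which transcripts differ when it is targeted. The labels name a maker and type for the Spt6 siRNA oligonucleotides only, and give the 2-mercaptoethanol concentration of the medium in different units for the groups. Nothing in them says if the replicates were separate cultures, and a p-value here therefore reflects array-to-array spread that may be technical. The label differences coincide with the groups, so anything that goes with them cannot be told apart from the siRNA.

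Remodellers work in families. SWI/SNF complexes, called BAF and PBAF after their accessory subunits, disorder and evict nucleosomes at promoters and enhancers. ISWI enzymes space nucleosomes in regular arrays, CHD proteins read or set chromatin in transcribed genes, and the CHD3 and CHD4 enzymes drive NuRD, a complex that joins remodelling to histone deacetylation. INO80-family complexes exchange the histone variant H2A.Z and act at replication forks and DNA breaks.

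Values are Cy5 intensities in arbitrary units, and differences are on the log2 scale, siSpt6 minus siControl. A call means an adjusted p under 0.05 in limma, with Benjamini-Hochberg adjustment over all 21584 tested probes, and each gene is given by its brightest probe. Levels of different probes cannot be compared with each other. Between 4.69% and 8.29% of probes were blank on an array, and all 38 members had values on all 6 arrays. The probe for Supt6 read 25.1, 21.8 and 28.1 on the siSpt6 arrays, against 33.1, 32.1 and 32.1 on the siControl arrays, a log2 difference of -0.38 (SE 0.13, limma adjusted p = 0.0973). The groups did not overlap, but the threshold was not passed. With cyclic loess normalization the probe passed it (-0.42, limma adjusted p = 0.0491). This probe lay below the median brightness of tested probes and is not shown to be above background. Its difference therefore sets no bound on the change in the transcript. Of 10 B cell marker genes 9 were measured, and the mean intensity of all 9 lay above the array median in both groups; 2 were called higher and 1 lower. Of 13 measured markers of T cells, myeloid cells and fibroblasts, only Csf1r lay above that median, in both groups, and 0 changed (limma; 1 had an unadjusted p under 0.05).

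Among the 38 remodeller genes, 2 rose and 6 fell in siSpt6. Smarce1 and Chd3 rose, while Hells, Ruvbl2, Ruvbl1, Mta1, Smarcad1 and Mbd3 fell. As shares these are 5.26% and 15.8%, beside 7.40% of 15224 genes called higher and 9.65% called lower. In both directions together 21.1% of the members were called, against 17.0% of all genes, so the count is near that of the array as a whole. Over the whole array 45.5% of called probes were higher in siSpt6 as deposited. With quantile normalization this share was 57.3%, and with cyclic loess 53.6%. The median log2 difference was -0.06 over the members and -0.00 over all genes; the members' median was 0.07 after quantile normalization and 0.04 after cyclic loess, so its sign depends on the scaling. As deposited, only Hells and Ruvbl2 differed by 2-fold or more. Hells stayed past 2-fold after quantile normalization (-1.18) and cyclic loess (-1.2), whereas Ruvbl2 did not (-0.91 and -0.93). Smarce1 reached 1.03 after either, and Chd3 reached 1.01 after quantile normalization and 0.97 after cyclic loess. The groups did not overlap for 5 members that were higher in siSpt6 (13.2%, against 16.9% of 14405 genes with all 6 values) and for 10 that were lower (26.3%, against 21.6%).

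**Figure D1:**
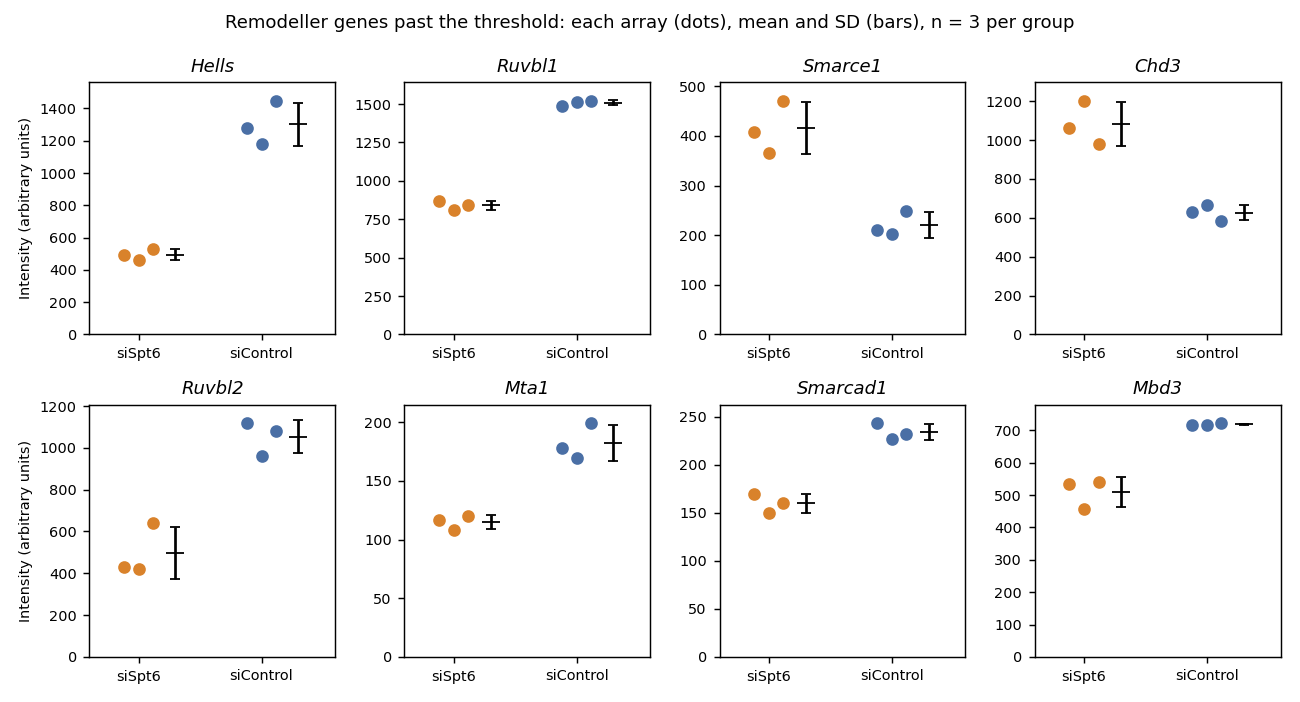
Intensity (arbitrary units, linear axis from 0) of the 8 remodeller genes past the threshold, in order of p. Dots are single arrays and the bars beside them the mean and SD (n = 3 each). For all 8 genes the siSpt6 and siControl arrays do not overlap, with Smarce1 and Chd3 higher in siSpt6 and the other 6 lower.

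The strongest difference was in Hells (also called LSH), a stand-alone SNF2 enzyme abundant in proliferating lymphoid cells and needed for DNA methylation of repeats. Hells read 493.0, 461.6 and 528.9 on the siSpt6 arrays, against 1277.2, 1179.1 and 1446.3 on the siControl arrays. All siSpt6 arrays lay far below all siControl arrays, with little spread inside either group. The means were 494.5 ± 33.7 in siSpt6 and 1300.9 ± 135.2 in siControl (SD, n = 3 each), a 2.63-fold fall (log2 difference -1.39, SE 0.13, limma adjusted p = 0.00141). Hells kept its call under all 14 alternative settings tried.

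Smarcad1, a stand-alone remodeller that helps resect broken DNA ends and restore silent chromatin after replication, also fell. It read 169.5, 150.1 and 160.0 in siSpt6, against 243.0, 226.9 and 231.5 in siControl. The groups were well separated, but the difference was smaller, a 1.46-fold fall (log2 difference -0.55, SE 0.11, limma adjusted p = 0.0191), and the call was lost without any 1 siControl array or without siSpt6 replicate 2 (limma adjusted p up to 0.0667). Smarcal1, which anneals DNA at stalled replication forks, did not pass the threshold. It read 197.7, 241.4 and 176.3 in siSpt6, against 170.9, 191.6 and 128.2 in siControl, with overlapping groups (log2 difference 0.33, 95% interval -0.13 to 0.80, limma adjusted p = 0.306).

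Of the 5 INO80-family genes 2 fell and 0 rose (limma, with 0 higher at an unadjusted p under 0.05). As shares these are 40.0% and 0.0%, beside 9.65% of all genes called lower and 7.40% called higher, and they rest on 5 genes. The 2 that fell were the AAA+ ATPases that these complexes share. Ruvbl1 and Ruvbl2 form a mixed ring that scaffolds the INO80, SRCAP and p400 complexes and also serves in other assemblies. Ruvbl1 read 868.5, 812.8 and 841.1 in siSpt6, against 1488.7, 1513.4 and 1519.6 in siControl. The arrays of each group lay close together and far from the other group, and Ruvbl1 fell 1.79-fold (log2 difference -0.84, SE 0.11, limma adjusted p = 0.0037). Ruvbl2 read 429.1, 422.1 and 640.5 in siSpt6, against 1116.8, 963.1 and 1082.0 in siControl. Replicate 3 of siSpt6 stood above its fellow arrays, yet below every siControl array, and Ruvbl2 fell 2.16-fold (log2 difference -1.11, SE 0.19, limma adjusted p = 0.01). Both genes kept their calls under all 14 alternative settings.

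The 3 SNF2 motors of these complexes did not pass the threshold, and their probes were dim or uneven. Ino80 read 26.3, 18.0 and 25.0 in siSpt6, against 28.9, 24.1 and 19.9 in siControl (log2 difference -0.08, 95% interval -0.56 to 0.41). Srcap, which loads H2A.Z, read 14.8, 13.4 and 11.9 in siSpt6, against 9.52, 12.6 and 13.7 in siControl (log2 difference 0.18, 95% interval -0.23 to 0.59). Ep400, the motor of the complex that holds the acetyltransferase Kat5, read 60.7, 60.7 and 92.2 in siSpt6, against 62.1, 65.8 and 96.9 in siControl (log2 difference -0.07, 95% interval -0.64 to 0.49). The groups overlapped for each of the 3. The intervals are not adjusted for the number of genes. The Ino80 and Srcap probes lay below the array median, within or close to the range of T cell and fibroblast markers, so their intervals describe the probes and set no bound on the transcripts.

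The stretch of 250 bases before the annotated transcription start is shown for the 3 members with the largest falls, to set the gene that stands alone beside the pair whose products form 1 ring. Capitals mark matches, on either strand, to an E2F core or to the NF-Y box, spelled CCAAT. The E2F core was searched in 4 forms: TTCCCGC as the first form, TTCGCGC as the second form, TTGCCGC as the third form and TTGGCGC as the fourth form. The Myc E-box (CACGTG) and the core for ETS factors (CCGGAAG) were also searched, and these windows hold neither. Sequences are from RefSeq, build GRCm38.p6, 5′ to 3′ on the gene's strand: Hells at chr19:38930740-38930989 (plus strand), Ruvbl1 at chr6:88465159-88465408 (plus strand) and Ruvbl2 at chr7:45434465-45434714 (minus strand).
Hells: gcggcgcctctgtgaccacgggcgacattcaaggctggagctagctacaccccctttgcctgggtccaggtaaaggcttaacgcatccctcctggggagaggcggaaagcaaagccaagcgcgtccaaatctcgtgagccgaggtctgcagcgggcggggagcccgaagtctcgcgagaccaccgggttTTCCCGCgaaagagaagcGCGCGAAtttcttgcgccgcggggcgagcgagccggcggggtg
Ruvbl1: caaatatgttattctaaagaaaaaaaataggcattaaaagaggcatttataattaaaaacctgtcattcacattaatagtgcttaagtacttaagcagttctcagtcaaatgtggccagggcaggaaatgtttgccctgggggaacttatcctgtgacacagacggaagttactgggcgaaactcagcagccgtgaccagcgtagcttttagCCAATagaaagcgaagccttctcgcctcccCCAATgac
Ruvbl2: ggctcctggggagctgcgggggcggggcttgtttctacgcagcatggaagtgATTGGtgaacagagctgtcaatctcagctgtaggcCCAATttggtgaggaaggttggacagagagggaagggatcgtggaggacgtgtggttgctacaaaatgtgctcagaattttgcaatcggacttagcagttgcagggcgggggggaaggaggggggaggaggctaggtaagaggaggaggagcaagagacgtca
The Hells window holds E2F cores beginning 61 and 43 bases before the start, the second on the opposite strand, and no NF-Y box. The Ruvbl1 window holds NF-Y boxes 38 and 8 bases before the start, and the Ruvbl2 window 198 and 163 bases before it. E2F factors are known regulators of genes for DNA synthesis, and NF-Y is a common promoter-binding factor of proliferating cells.

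Of the 38 members, 29 had a promoter in that table. An E2F core was in 5 of the 29 (17.2%), against 11.8% of 12193 promoters of genes tested on the array and 7.97% of 27025 promoters in the whole table, with 1 start per gene. An NF-Y box was in 11 (37.9%), against 35.4% and 34.5%. The Myc box was in 1 (3.45%, against 7.51% and 6.05%) and the ETS core in 2 (6.90%, against 11.0% and 7.05%). Of the 6 members that fell, all with a promoter in the table, Hells alone held an E2F core, and Mbd3, Ruvbl1 and Ruvbl2 held an NF-Y box. The windows of Mta1 and Smarcad1 held none of the motifs searched and, like that of Mbd3, are not shown. A match of these letters is a description and not a binding site.

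In the CHD and NuRD family, 1 of 14 members rose and 2 fell (7.14% and 14.3%, against 7.40% and 9.65% of all genes). Chd3, an ATPase of NuRD also known as Mi-2alpha, read 1064.0, 1200.9 and 977.7 in siSpt6, against 630.1, 665.8 and 584.8 in siControl. Every siSpt6 array was above every siControl array, a 1.72-fold rise (log2 difference 0.78, SE 0.13, limma adjusted p = 0.00893). A second, dimmer Chd3 probe read 22.7, 22.3 and 25.4 in siSpt6, against 18.5, 17.1 and 12.5 in siControl. It too was higher on every siSpt6 array, without passing the threshold (log2 difference 0.56, SE 0.17, limma adjusted p = 0.0691). This second probe lay below the median brightness of tested probes and is not shown to be above background. Chd4, the alternative NuRD motor (Mi-2beta), did not pass the threshold and was uneven inside the control group. It read 917.9, 727.1 and 950.8 in siSpt6, against 1042.7, 818.0 and 595.1 in siControl (log2 difference 0.11, 95% interval -0.43 to 0.64, limma adjusted p = 0.798).

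Among the NuRD subunits without a motor, 2 of 6 fell (33.3%, against 9.65% of all genes), a share that rests on 6 genes. Mta1, a scaffold that binds the histone deacetylases, read 116.7, 107.9 and 119.9 in siSpt6, against 177.7, 169.5 and 199.0 in siControl. The groups were apart and Mta1 fell 1.58-fold (log2 difference -0.66, SE 0.12, limma adjusted p = 0.0126). Mbd3, a methyl-CpG-binding domain protein of NuRD, read 533.6, 457.8 and 539.3 in siSpt6, against 716.7, 717.7 and 721.7 in siControl. Mbd3 fell 1.41-fold (log2 difference -0.50, SE 0.12, limma adjusted p = 0.0322), but this was the least secure call. Leaving out any 1 array ended it (limma adjusted p 0.0529 to 0.0894), as did quantile and cyclic loess normalization (log2 differences -0.31 and -0.33, limma adjusted p = 0.121 and 0.0889). Mta3, the scaffold known from B cells of the germinal centre, read 265.1, 267.7 and 223.0 in siSpt6, against 208.5, 212.1 and 189.7 in siControl. Its groups did not overlap, yet the difference of 0.31 (SE 0.13) did not pass the threshold (limma adjusted p = 0.161). Gatad2a, Gatad2b and Mbd2, which bridge or alternate within NuRD, had log2 differences of -0.32, 0.26 and -0.12 (limma adjusted p = 0.187, 0.417 and 0.629).

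Of the 8 CHD motors, Chd3 was the only one called. Chd1, whose human form binds trimethylated H3K4, had the lowest difference among them. It read 170.1, 132.6 and 193.2 in siSpt6, against 229.5, 204.6 and 224.3 in siControl, with no overlap (log2 difference -0.42, SE 0.16, limma adjusted p = 0.133). Chd2, its close relative, read 65.1, 50.4 and 51.0 in siSpt6, against 76.2, 59.5 and 53.4 in siControl, with overlap (log2 difference -0.18, SE 0.18). Chd6, Chd7, Chd8 and Chd9, the large CHD proteins known from enhancers and development, had log2 differences of 0.12, -0.05, 0.08 and 0.36 (limma adjusted p = 0.531, 0.834, 0.852 and 0.223). Of these, Chd9 alone had groups that did not overlap, at 23.5, 17.8 and 15.6 in siSpt6, against 15.5, 13.5 and 14.8 in siControl. A second Chd8 probe had the same log2 difference of 0.08.

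In SWI/SNF, 1 of 11 members rose and 0 fell (limma, with 1 lower at an unadjusted p under 0.05, Smarcb1). As shares these are 9.09% and 0.0%, beside 7.40% of all genes called higher and 9.65% called lower. The rise was in Smarce1 (BAF57), a DNA-bending HMG-box subunit of the core. Smarce1 read 408.6, 366.2 and 470.2 in siSpt6, against 209.4, 201.6 and 249.3 in siControl. The groups were far apart, a 1.88-fold rise (log2 difference 0.91, SE 0.15, limma adjusted p = 0.00858), and the call held under all 14 alternative settings. Of the other 10 members, the log2 differences ran from -0.43 to 0.25, with limma adjusted p from 0.132 to 0.916. For the 8 of them with probes at or above the median brightness of tested probes, the 95% interval, not adjusted for the number of genes, left out a 2-fold change in either direction of the intensity.

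Neither of the alternative SWI/SNF motors passed the threshold. Smarca4 (BRG1) read 346.6, 394.0 and 541.5 in siSpt6, against 415.7, 396.4 and 531.2 in siControl (log2 difference -0.08, 95% interval -0.56 to 0.40; 0.08 after quantile normalization and 0.06 after cyclic loess). Smarca2 (BRM) read 98.5, 86.3 and 108.3 in siSpt6, against 79.9, 73.1 and 93.6 in siControl (log2 difference 0.25, 95% interval -0.10 to 0.60). For both genes the groups overlapped, and replicate 3 was the highest array in each group. Smarcb1 (SNF5), a core subunit that grips the nucleosome, had the lowest difference of the family and no overlap. It read 351.8, 335.4 and 470.0 in siSpt6, against 477.4, 567.3 and 499.7 in siControl (log2 difference -0.43, SE 0.16, limma adjusted p = 0.132). Smarcb1 passed without siSpt6 replicate 3 (limma adjusted p = 0.0495). Smarcd1 and Actl6a (BAF53A, also a subunit of INO80-family complexes) had log2 differences of -0.35 and -0.30 (limma adjusted p = 0.168 and 0.221). The BAF-defining Arid1a and the PBAF-defining Arid2 had differences of 0.06 and 0.17, and the scaffold Smarcc1 of 0.03. The probes for Smarcc2 and Smarcd3 were dim, with means of 5.78 ± 1.30 and 13.4 ± 1.34 in siSpt6, against 5.16 ± 0.521 and 14.2 ± 0.85 in siControl (SD, n = 3 each), and no bound on a change in these 2 transcripts can be drawn from them.

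No ISWI gene was called (0 of 5 by limma at adjusted p under 0.05, with 2 of 5 at an unadjusted p under 0.05, Smarca5 and Baz1b). Of all genes 17.0% were called, so 0 of 5 is no result about the family. Smarca5 (SNF2H), the main ISWI motor in dividing cells, read 312.4, 337.3 and 370.7 in siSpt6, against 432.6, 428.1 and 402.0 in siControl. The groups did not overlap (log2 difference -0.31, 95% interval -0.59 to -0.03, limma adjusted p = 0.132). Smarca1 (SNF2L) was dim and overlapped, at 23.7, 18.5 and 14.1 in siSpt6, against 19.4, 16.4 and 20.8 in siControl. Bptf, which ties the NURF complex to trimethylated H3K4, read 699.7, 626.6 and 874.8 in siSpt6, against 542.4, 594.3 and 592.4 in siControl. Its groups were apart (log2 difference 0.34, SE 0.15, limma adjusted p = 0.195), and it passed after cyclic loess (0.51, limma adjusted p = 0.0461). Baz1a (ACF1) and Baz1b (WSTF), which pair with Smarca5 in complexes of replicating chromatin, had log2 differences of 0.14 and -0.55 (limma adjusted p = 0.636 and 0.163).

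**Figure D2:**
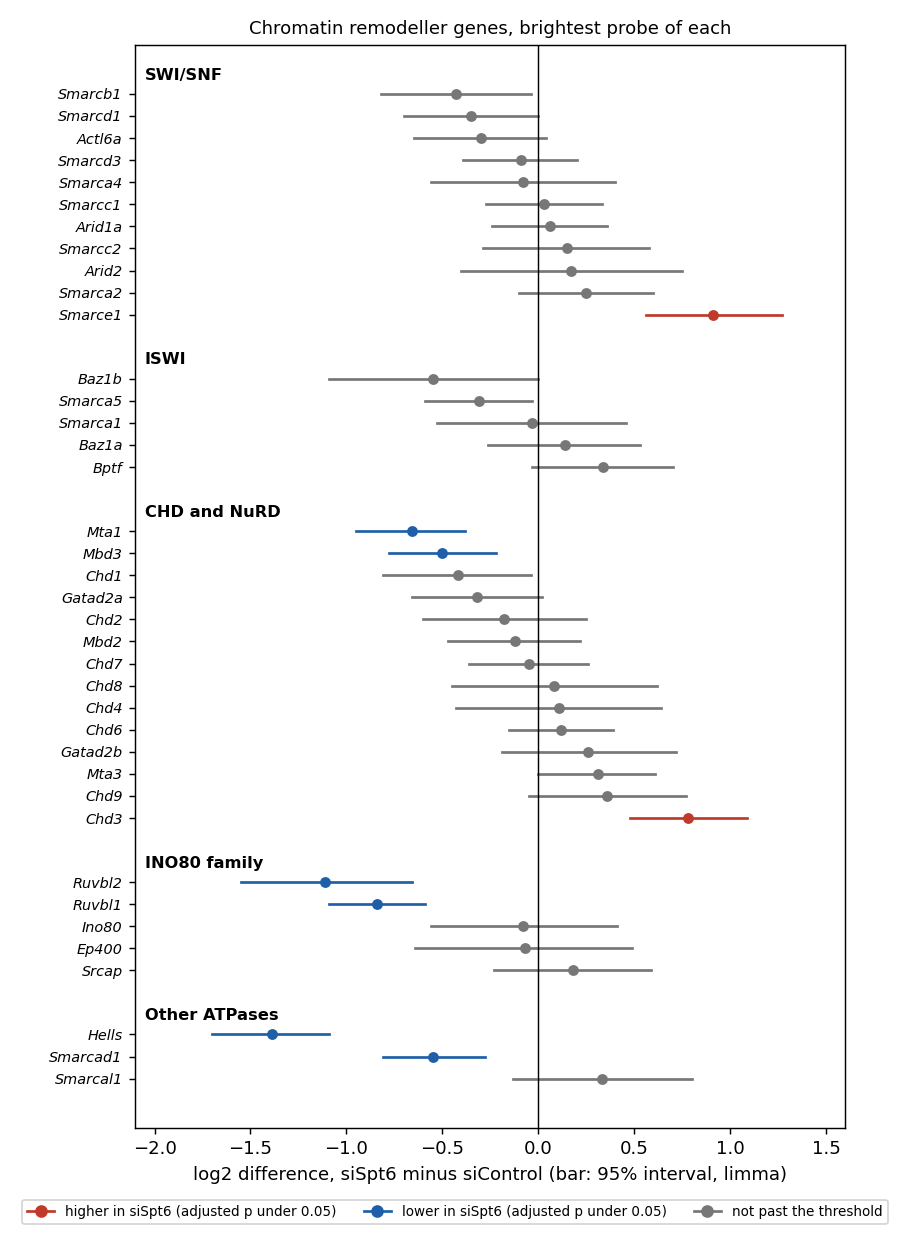
Log2 difference, siSpt6 minus siControl, of the 38 remodeller genes by family; points are estimates, bars 95% intervals from limma without adjustment for the number of genes, and colour gives the call. The called genes run from -1.39 (Hells) to 0.91 (Smarce1), and the 30 others lie between -0.55 and 0.36.

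Set side by side, the families had median log2 differences of 0.03 (SWI/SNF), -0.03 (ISWI), 0.01 (CHD/NuRD), -0.08 (INO80) and -0.55 (the 3 stand-alone ATPases). The first 4 medians lay within 0.1 of 0 as deposited. However, the INO80 and ISWI medians were the values of the dim Ino80 and Smarca1 probes. With bright probes only, where Ino80, Srcap and Smarca1 are not tested, they were -0.84 and -0.09. With 1 array left out the INO80 median ran from -0.28 to 0.03 and the ISWI median from -0.22 to 0.09. After quantile normalization the first 4 medians were 0.08, -0.05, 0.11 and -0.10, and no test was made between the families. By role, 1 of 18 SNF2 motors rose and 2 fell, and 1 of 18 subunits without a motor rose and 2 fell. For each role these are 5.56% and 11.1%, near the 7.40% and 9.65% of all genes. Both AAA+ ATPases fell. Of the 30 members that were not called, 24 had probes at or above the median brightness of tested probes, and for 23 of these the 95% interval left out a 2-fold change of the intensity in either direction; the exception was Baz1b. The other 6, Smarcc2, Smarcd3, Smarca1, Chd9, Ino80 and Srcap, had dimmer probes that are not shown to be above background, and nothing is read from their intervals. The standard errors of the members ran from 0.11 to 0.24 on the log2 scale, and the number of arrays limits this precision.

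The ratio of 2 related genes within an array removes anything that scales both probes alike. Ratios were formed for 7 pairs of related genes, chosen with their values known; most can take the same place in a complex, whereas Ruvbl1 and Ruvbl2 are partners in 1 ring. Relative to Mta3, Mta1 was lower in siSpt6, with log2 ratios of -1.18, -1.31 and -0.90 in siSpt6, against -0.23, -0.32 and 0.07 in siControl, a change of -0.97. Relative to Chd4, Chd3 was higher, with ratios of 0.21, 0.72 and 0.04 in siSpt6, against -0.73, -0.30 and -0.03 in siControl, a change of 0.68; the closest arrays of the groups were nearly equal. The ratio of Gatad2a to Gatad2b changed by -0.58 and that of Smarca2 to Smarca4 by 0.33, also without overlap. The other 3 ratios, Smarca1 to Smarca5, Mbd3 to Mbd2 and Ruvbl1 to Ruvbl2, changed by 0.28, -0.37 and 0.27 and overlapped. In a two-sided exact permutation test the 4 pairs without overlap had p = 0.1, the smallest that 3 arrays against 3 can give, and 0.18 after Benjamini-Hochberg adjustment over the 7 pairs, so none could pass 0.05. The absolute ratios depend on the probes and carry no meaning of their own.

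**Figure D3:**
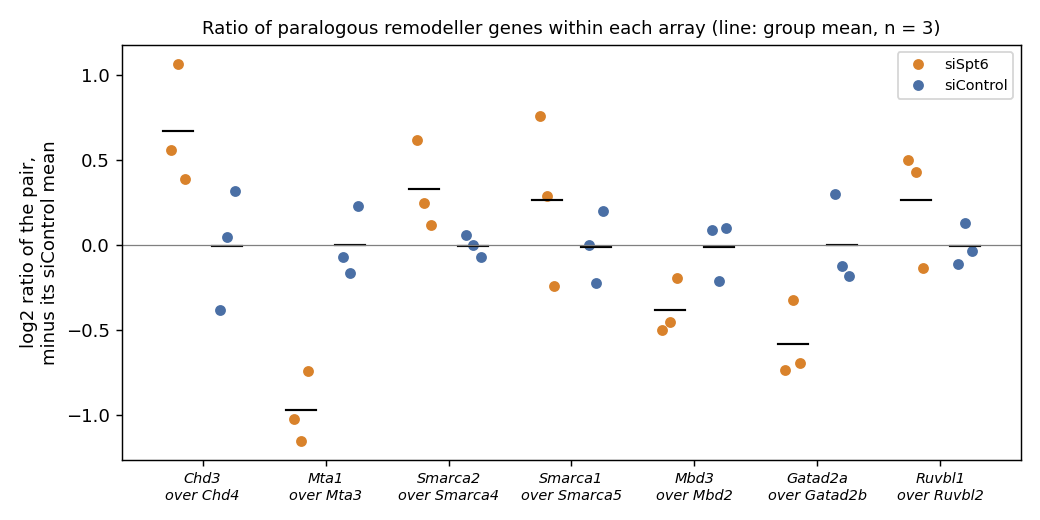
Log2 ratio of the named probe pair on each array, less the mean of the siControl arrays (so 0 is the control mean); dots are arrays, lines group means (n = 3 each). The groups are apart for Chd3 over Chd4, Mta1 over Mta3, Smarca2 over Smarca4 and Gatad2a over Gatad2b, with changes of 0.68, -0.97, 0.33 and -0.58.

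Remodeller genes are long, with a median span of 68.9 kb in the GRCm38.p6 annotation against 20.7 kb for 15170 array genes. Of the 12 members that span at least 100 kb, 0 were called (limma; 1 at an unadjusted p under 0.05, Mta3) and the median log2 difference was 0.13. Of the 1890 array genes of that span 11.5% were called, so 0 of 12 is near the background. Of the 26 shorter members 2 rose and 6 fell (30.8% called, against 17.8% of array genes under 100 kb), with a median of -0.21. The limit of 100 kb was set after the values were seen. Across the 38 genes, span and difference had a Spearman's rho of 0.41, beside 0.00 across the 15170 genes, given as a description over genes of the same 6 arrays, which are not independent. Over all genes the medians were 0.04 for those of at least 100 kb and -0.01 for the rest. The members were also bright, with 32 of 38 at or above the median brightness of all genes, and genes in that upper part had a median difference of -0.08. The part of brightness in the members' differences was not tested.

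**Figure D4:**
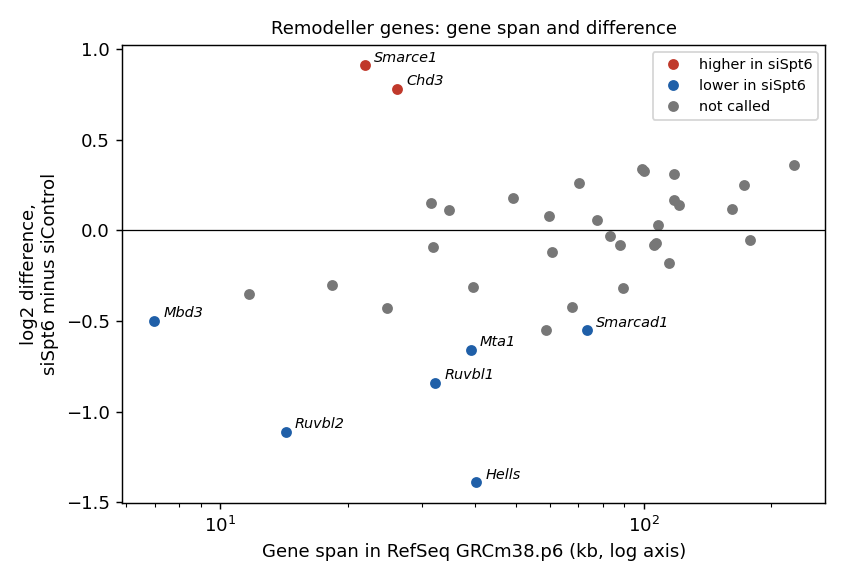
Gene span in kb (log axis) against the log2 difference, siSpt6 minus siControl, of the 38 remodeller genes; colour gives the call. The 8 called genes all span less than 100 kb, and the 12 longest genes lie between -0.18 and 0.36.

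Part of the spread within groups was shared by the members. Replicate 3 of siSpt6 was the highest array of its group for 25 of 38 members, against 45.5% of all genes with 6 values, and replicate 3 of siControl was the highest of its group for 21 of 38, against 27.2%. For 17 of 38 members both were so, against 18.2% of all genes. Arid2, with 170.1, 171.3 and 278.8 in siSpt6, against 151.8, 167.5 and 222.9 in siControl, shows the pattern, as do Smarca4 and Ep400 above. The labels give no reason for it. With the replicate number as a block in the fit, the same 8 members were called. Beyond that fit, its part in the results was not tested.

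A further list of 65 subunits and SNF2 ATPases outside the 42 was set beside them, and 56 were measured. Of these 1 rose and 5 fell (1.79% and 8.93%, near or below the 7.40% and 9.65% of all genes), with a median log2 difference of -0.09. The rise was in Ino80b, a subunit of INO80, with 1188.1, 946.6 and 1073.1 in siSpt6, against 715.4, 657.6 and 581.5 in siControl, a 1.64-fold rise (limma adjusted p = 0.0175), lost without siControl replicate 2 or 3 or siSpt6 replicate 1. Phf10, a PHD-finger subunit of PBAF, read 715.4, 685.0 and 647.9 in siSpt6, against 1513.1, 1641.5 and 1427.2 in siControl. That was a 2.24-fold fall (log2 difference -1.16, SE 0.12, limma adjusted p = 0.00188), larger than that of any measured SWI/SNF member of the first list. Rad54l, a SNF2 motor of homologous recombination, fell 1.66-fold (limma adjusted p = 0.00878), and the NuRD histone-binding subunit Rbbp7 fell 1.68-fold (limma adjusted p = 0.00967; 0.068 after quantile normalization). Uchl5, a deubiquitinase bound to INO80, and Meaf6, a subunit of Kat5 complexes, fell 1.71-fold and 1.39-fold (limma adjusted p = 0.0179 and 0.0286); these 2 names were chosen with values in view. Neither passed with quantile normalization (adjusted p in limma 0.0723 and 0.0543) or without some arrays, siControl replicate 1 or 2 for Uchl5 and any 1 of the 6 for Meaf6. In the INO80, SRCAP and Kat5 part of this list 1 of 26 genes rose and 2 fell (3.85% and 7.69%).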

How the data were processed

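RNA of 3 siSpt6 and 3 siControl samples was compared; the titles of the samples gave group and replicate number. Per the labels' protocols, amplified RNA was coupled to Cy5 and read on 1-colour TORAY arrays. The values are linear intensities as deposited by the authors, 1 column for each array. Any background correction or normalization by the authors was not given in the sources used here. Array medians lay between 29.975 and 29.998, so the values seem scaled to a common median.

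Probes were named from a platform annotation, with symbols updated through RefSeq (GRCm38.p6); older symbols shared by several genes were not resolved. The members, families and lists were chosen with earlier results of these data known. Values were log2-transformed without a pseudocount. Probes with at least 2 values per group were fitted with limma 3.58.1 in R 4.3.3 (lmFit and eBayes, group as the only term, two-sided, Benjamini-Hochberg over all tested probes), and the fit was tested on simulated data. A gene was represented by its brightest probe. Genes named were Supt6, every called member and every ATPase, plus up to 3 rises and 3 falls of the further list, whose other 2 falls were named after their values were known; other members were given by ranges or where their families were described. Alternatives were quantile and cyclic loess normalization, bright probes only, complete probes only, a pseudocount of 2.66, eBayes with trend and robust options, the replicate block, the mean of a gene's probes and each array left out. Promoters were read as the 250 bases before the first listed start.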

Additional observations from a re-analysis of the deposited data

How the results depend on the processing

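The 8 calls among the members were kept with complete probes only, the pseudocount, the trend and robust options, the mean of a gene's probes and bright probes only, which tested 32 members and added Chd1 and Smarcb1. Quantile normalization kept 7 (without Mbd3), and cyclic loess 7, with Bptf added. Leaving out 1 array gave 2 rises each time and 4 to 6 falls; the calls lost were Mbd3 and Smarcad1, and Smarcb1 was gained once. The members' median log2 difference of -0.06 was 0.07 after quantile normalization and 0.04 after cyclic loess, and -0.09 to 0.03 with 1 array left out; the cause was not tested. The CHD/NuRD median of 0.01 was 0.11 after quantile normalization, 0.09 after cyclic loess, -0.05 with bright probes only and -0.09 to 0.05 with 1 array left out. The INO80 median of -0.08 was -0.84 with bright probes only, where Ino80 and Srcap are not tested, and -0.28 to 0.03 with 1 array left out. The ISWI median ran from -0.22 to 0.09 with 1 array left out. Supt6 passed after cyclic loess (-0.42, limma adjusted p = 0.0491), and ran from -0.47 to -0.29 with 1 array left out.

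Over all probes, 1603 were called higher and 1922 lower; leaving out 1 array gave 1047 to 1124 higher and 1052 to 1421 lower. The further list, whose alternatives were chosen after seeing the data, had 1 rise and 5 falls. Its falls were 12 with bright probes only, 8 with complete probes only, 11 with the trend and robust options, 11 with the pseudocount and 2 after quantile normalization; with the trend and robust options or the pseudocount 2 rose. Leaving out 1 array gave 0 to 1 rises and 3 to 5 falls.

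The replicate numbers are shared by the groups. Deviations from the group means correlated across probes with r of 0.351, 0.076 and 0.262 between arrays of the same number, so they do not all pass 0.1 and the arrays were not taken as paired, although each array correlated best with its own number. With the replicate block, 1630 probes were called higher and 1964 lower, 2 members rose and 6 fell, Supt6 was at -0.38, and 8 genes of the further list fell and 1 rose. Signal over background was not analysed here, which leaves dim probes such as Smarcc2 and Srcap without a detection limit.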
